A study of Mus musculus with 8 samples.

Results

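The expression of 9 genes for neurotrophins, growth factors and their receptors was described in the olfactory bulb of mice reared with or without environmental enrichment and then exposed to clean air or diesel exhaust (DE). The genes were Bdnf, Ntf3, Ntrk2, Vgf, Igf1, Igf1r, Gdnf, Fgf2 and Vegfa, and their probes were taken as every noncontrol probe that carries one of these names on the array. These are 9 of 34797 gene names on the array, and they had 17 of the 55681 noncontrol probes, on 41 spots. The study asked whether the rearing environment alters the response of the olfactory bulb to inhaled exhaust.

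All mice were male C57BL/6J mice of 56 days. The C-C group was reared in a standard cage and breathed clean air, and the C-DE group was reared in the same way and inhaled exhaust. The EE-C group was reared with enrichment, that is in a larger cage with a running wheel, a small house, wood blocks and plastic tubing, and breathed clean air. The EE-DE group had the enriched rearing and inhaled exhaust. Enrichment began at gestational day 14 and was kept after weaning, also in the exposure chamber, and the exhaust was given at 90 µg/m3 for 8 hours per day on 28 days, beginning at postnatal day 28 and ending at day 55. The methods state that RNA was combined into 1 pool per group, and each pool was divided over 2 one-colour arrays. The standard-cage pools held 7 mice each, the enriched pool in clean air held 8 and the enriched pool in exhaust held 9. A group is therefore 1 pool, the 2 arrays of it do not show how much mice vary, and no test was possible for a comparison of 1 pool with another. The 8 arrays shared a slide on which each housing had its own column, and the clean-air arrays lay in rows 1 and 2 and the exhaust arrays in rows 3 and 4. Housing and slide column, and exhaust and slide row, therefore cannot be told apart.

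Bdnf (brain-derived neurotrophic factor) and Ntf3 (neurotrophin 3) are secreted proteins that keep neurons alive and strengthen their synapses. Bdnf acts through the receptor tyrosine kinase TrkB, which Ntrk2 encodes, and a truncated TrkB without the kinase domain is made from the same gene. Transcription of Bdnf and of Vgf, a secreted granin-like neuropeptide precursor, is raised by neuronal activity. Igf1 and Vegfa, with receptors such as Igf1r and Kdr, support neurons and blood vessels, and Gdnf and Fgf2 are growth factors for neurons and for progenitor cells. These genes are widely studied in connection with exercise and enrichment, and the olfactory bulb receives new neurons throughout adult life.

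The probes are 60 bases long. The sequences of 2 of them are given because they decide what could be measured: the Ntrk2 probe is shared by full-length and truncated TrkB transcripts, and the Fgf2 probe joins exons that lie apart in the genome. No bases are marked in them.
Ntrk2 shared probe: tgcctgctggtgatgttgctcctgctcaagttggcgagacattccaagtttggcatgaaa
Fgf2 probe: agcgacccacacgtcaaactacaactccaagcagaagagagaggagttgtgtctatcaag
In the build of the array files (mm9), the Ntrk2 probe lies at chr13:58979563-58979622 on the plus strand. The Fgf2 probe spans chr3:37247934-37295153 on the plus strand. Of the Vegfa probes, the one with 2 reading frames free of stop codons is called the coding probe, and the one with 0 such frames is called the 3′ probe. These are labels only. Free frames do not show that a probe lies in coding sequence, and its coding position was not looked up.

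Bdnf is transcribed from several promoters, and the array has 1 Bdnf probe, at chr2:109566961-109567020 (mm9, plus strand), for which the files list 4 RefSeq transcripts. It therefore could not separate the products of those promoters. One of these promoters is shown because its window holds a motif like the cyclic AMP response element (CRE), which activity-driven transcription factors bind. The bases before its start site are those of RefSeq in the build GRCm38.p6 (chr2:109692286-109692435, plus strand), and the capitals mark the motif.
Bdnf promoter: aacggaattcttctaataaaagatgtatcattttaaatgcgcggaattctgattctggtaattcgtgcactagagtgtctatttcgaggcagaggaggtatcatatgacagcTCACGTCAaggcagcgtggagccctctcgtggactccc
The RefSeq table held 17 windows of 300 bases around the starts of 8 of the 9 genes, among them 7 of Bdnf, and it had no entry for Vgf. The full element TGACGTCA was in none of these 17 windows and in 1.79% of all 32851 windows. The motif TCACGTCA, searched on both strands, was in 1 of the 17 windows, the one shown, and in 0.441% of all windows. The core TGACG, which both longer motifs contain on at least one strand, was in 4 of the 17 windows (Bdnf, Fgf2, Gdnf and Vegfa, 1 window each) and in 20.8% of all windows.

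Each value is a spot's background-corrected signal on the log2 scale, set relative to the 75th percentile that noncontrol spots had on the same array. A probe passed when it was well above background on all 8 arrays, had no outlier flag and carried a GenBank or RefSeq accession. Of the 17 probes, 14 passed, from 7 genes, among 21699 passing probes in all. The single Ntf3 probe and both Fgf2 probes did not pass. Fewer spots were well above background on the first array of EE-DE (56.7%) than on the remaining 7 arrays (68.0% or more).

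The tissue markers were present, and the 2 arrays of a pool differed in some of them. Of 17 olfactory bulb neuron markers, 16 were found on the array and all 16 passed, and their summed level (log2) was between 8.69 and 8.76 on all 8 arrays. The summed level of markers of olfactory mucosa (supporting cells and glands), a neighbouring tissue, was 3.78 and 2.86 on the C-C arrays, 1.98 and 2.36 on the C-DE arrays, 3.71 and 2.30 on the EE-C arrays and 3.45 and 4.10 on the EE-DE arrays, with 8 of 9 markers passing. Bpifa1, the remaining marker, was well above background on 5 arrays. The summed level of 5 neutrophil markers was 3.14 and 1.57 on the EE-C arrays and lay between 1.17 and 2.41 on the others. Between pools, all 8 mucosal markers were at least 1.5-fold lower in C-DE/C-C (median log2 fold change −1.22) and at least 1.5-fold higher in EE-DE/C-DE (1.66). For EE-DE/EE-C, 5 of the 8 were at least 1.5-fold higher (0.72), against the direction of C-DE/C-C. For EE-C/C-C, 2 were lower by that much (−0.29), and for EE-DE/C-C 2 were higher (0.43). Cyp2g1, Krt8, Krt18 and Sec14l3 passed 1.5-fold in all 4 pairings of both comparisons, and Cyp2f2, Ugt2a1, Cbr2 and Bpifb4 in those of EE-DE/C-DE. Of the 5 neutrophil markers, 4 were at least 1.5-fold lower in C-DE/C-C (median −0.88; S100a8, S100a9 and Ltf in all pairings) and 4 at least 1.5-fold higher in EE-DE/C-DE (0.81). All 5 had an unadjusted limma p under 0.05 for housing and for exhaust, against 9.69% and 7.42% of all probes, with 0 called after adjustment. Of 5 passing bone markers, 2 were at least 1.5-fold lower in C-DE/C-C (median −0.55) and 2 in EE-C/C-C (−0.48). Of 8 passing markers of olfactory sensory neurons, 2 were at least 1.5-fold lower in C-DE/C-C (−0.20) and 2 were at least 1.5-fold higher in EE-DE/EE-C (0.10). Also 2 were at least 1.5-fold higher in EE-DE/C-DE (0.28), where Cnga4 and Ano2 passed in all pairings. The 2 arrays of a pool differed at least 1.5-fold in all 8 mucosal markers within both clean-air pools (C-C, EE-C), in 6 of them within EE-DE and in 2 within C-DE. Such differences were seen in all 5 neutrophil markers within EE-C, in 4 within EE-DE, in 1 within C-DE and in 0 within C-C. Whether the 2 arrays of a pool held the same RNA was not tested, so the comparisons were also made with the 8 arrays counted as separate samples. The part of these tissues and cells in the values of the 9 genes and of the wider gene lists was not tested.

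None of the 14 member probes differed 1.5-fold between any pools. In C-DE/C-C, 0 of 14 probes passed 1.5-fold, where 0.576% of all probes did, and their median log2 fold change was 0.03. In EE-DE/EE-C, the count was 0 of 14 against 0.94% of all probes, with a median of 0.01. For housing, it was 0 of 14 against 0.82% in EE-C/C-C and 0 of 14 against 0.636% in EE-DE/C-DE, both with a median of −0.06. In EE-DE/C-C, it was 0 of 14 against 0.816%, with a median of −0.03. These comparisons share pools. With shares this low over all probes, a count of 0 among 14 does not set the members apart. Over all 4 pools, the means of 13 of the 14 probes lay within 1.2-fold of each other, as they did for 84.2% of all probes.

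**Figure D1:**
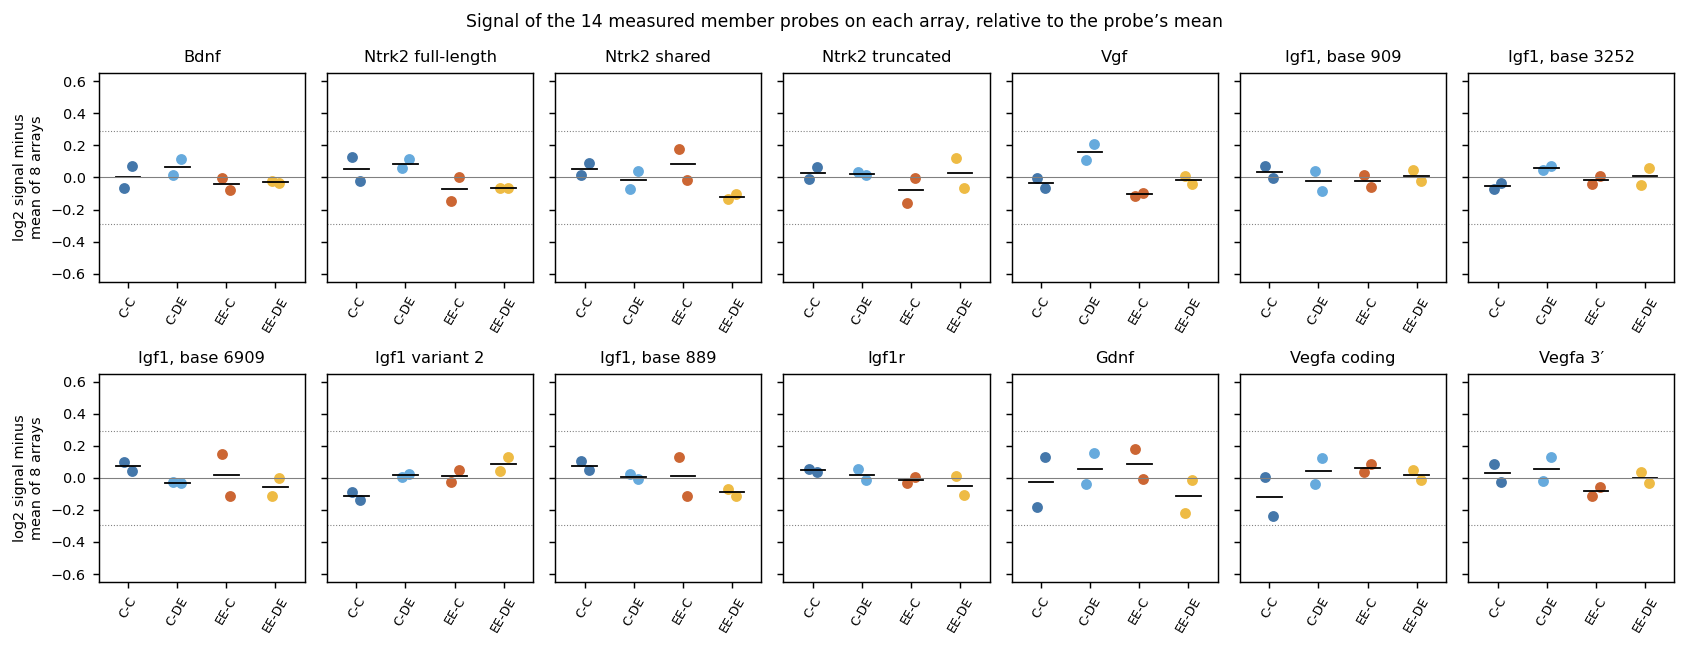
Log2 signal of each of the 14 passing member probes on the 8 arrays, relative to the probe's mean over the arrays (y axis), by pool (x axis). Each point is 1 array, the black line is the mean of the 2 arrays of a pool, and the dotted lines are 1.5-fold apart. Pool means differ by 0.06 to 0.27, and every point of a probe lies within the dotted lines.

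Bdnf had almost the same signal in the 4 pools. Its probe gave −0.28 and −0.15 on the C-C arrays, −0.20 and −0.10 on the C-DE arrays, −0.22 and −0.29 on the EE-C arrays, and −0.24 and −0.25 on the EE-DE arrays. Of the 5 pairs of pools compared, only the arrays of EE-DE and C-DE do not overlap. The log2 fold change of Bdnf was 0.06 (range over the 4 pairings of arrays −0.05 to 0.18) in the standard cage, C-DE/C-C, and 0.01 (−0.03 to 0.05) with enrichment, EE-DE/EE-C. For the enriched against the standard housing it was −0.04 (−0.14 to 0.06) in clean air and −0.10 (−0.15 to −0.04) in exhaust. From the highest pool mean to the lowest, the pools were C-DE, C-C, EE-DE and then EE-C, and the arrays of each neighbouring pair overlap.

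Ntf3, the second neurotrophin, was close to background. Its probe was well above background on 6 of the 8 arrays, the exceptions being the second C-C array and the first EE-DE array. It gave −5.03 and −6.38 on the C-C arrays, −5.66 and −5.53 on the C-DE arrays, −5.39 and −4.25 on the EE-C arrays, and −5.56 and −5.54 on the EE-DE arrays. The C-C arrays stood 1.35 apart and the EE-C arrays 1.14 apart, and the second EE-C array was the highest of all. No fold change was computed for it in the main comparisons.

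Ntrk2 was read by 3 probes, which differed in their order of the pools. The probe for full-length TrkB, printed on 10 spots whose SD within an array was 0.03 to 0.05, gave 2.70 and 2.55 on the C-C arrays, 2.63 and 2.68 on the C-DE arrays, 2.43 and 2.57 on the EE-C arrays, and 2.51 and 2.50 on the EE-DE arrays. Both enriched pools were lower than both standard-cage pools, though single arrays of EE-C and C-C overlap. The log2 fold change was −0.12 (−0.27 to 0.03) in EE-C/C-C and −0.15 (−0.18 to −0.12) in EE-DE/C-DE. The probe for truncated TrkB gave 1.75 and 1.83 on the C-C arrays, 1.79 and 1.78 on the C-DE arrays, 1.60 and 1.76 on the EE-C arrays, and 1.88 and 1.70 on the EE-DE arrays. Here the arrays of every pair of pools compared overlap. The shared probe printed above gave 4.31 and 4.38 on the C-C arrays, 4.22 and 4.33 on the C-DE arrays, 4.47 and 4.28 on the EE-C arrays, and 4.16 and 4.19 on the EE-DE arrays. Its lowest pool was EE-DE, with a log2 fold change of −0.20 (−0.31 to −0.09) in EE-DE/EE-C and −0.07 (−0.16 to 0.02) in C-DE/C-C. In EE-C/C-C it was 0.03, and −0.13 with another background correction (normexp), which gave −0.12 in EE-DE/EE-C. Without the first EE-C array, on which the probe was highest, EE-DE/EE-C was −0.11. The passing spots around the probe had a median of 0.11 on that array, relative to their medians over the arrays. On the remaining arrays it was −0.04 to 0.02. The part of this in the values was not tested.

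Vgf was the one of the 14 passing probes whose pool means differed most. Its probe gave 4.61 and 4.55 on the C-C arrays, 4.73 and 4.82 on the C-DE arrays, 4.50 and 4.52 on the EE-C arrays, and 4.62 and 4.57 on the EE-DE arrays. Both C-DE arrays were above every other array, both EE-C arrays were below every other array, and the C-C and EE-DE arrays overlap. Vgf had a log2 fold change of 0.20 (0.12 to 0.27), or 14.6%, in C-DE/C-C and 0.09 (0.05 to 0.12) in EE-DE/EE-C. It was −0.18 (−0.25 to −0.10) in EE-DE/C-DE and −0.07 (−0.11 to −0.03) in EE-C/C-C. Under 18 other settings it stayed between 0.12 and 0.24 in C-DE/C-C, while EE-DE/EE-C ran from −0.01 with normexp to 0.12. Other filters, the use of all spots, and leaving out an array outside the comparison could not move these values. The exhaust effect in the enriched housing minus that in the standard housing was −0.11 and was not tested, since 1 pool stands for each combination. The median of the mucosal markers was opposite in sign to Vgf for C-DE/C-C (−1.22) as well as EE-DE/C-DE (1.66). It had the sign of Vgf for EE-DE/EE-C (0.72) as well as EE-C/C-C (−0.29). The neutrophil markers had −0.88 for C-DE/C-C, −0.32 for EE-DE/EE-C, 0.27 for EE-C/C-C and 0.81 for EE-DE/C-DE, each opposite in sign to Vgf. The part of either in the Vgf values was not tested.

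Igf1 was read by 5 probes, each on 2 spots. Of these, 4 are listed by the files for the same 4 RefSeq transcripts and are named here by their place in the first of them, at bases 889, 909, 3252 and 6909. The remaining probe is listed for 1 other RefSeq transcript, variant 2. The variant 2 probe, at chr10:87378456-87378515 (mm9, plus strand), gave −0.36 and −0.40 on the C-C arrays, −0.26 and −0.24 on the C-DE arrays, −0.29 and −0.21 on the EE-C arrays, and −0.22 and −0.14 on the EE-DE arrays. Both C-C arrays were below every other array. The variant 2 probe had a log2 fold change of 0.20 (0.13 to 0.26) in EE-DE/C-C, 0.13 (0.10 to 0.16) in C-DE/C-C and 0.13 (0.07 to 0.19) in EE-C/C-C. The 2 spots of the variant 2 probe, however, disagreed on every enriched array. They gave −0.42 and −0.16 on the first EE-C array, −0.37 and −0.06 on the second, −0.40 and −0.05 on the first EE-DE array, and −0.29 and 0.01 on the second, with an SD of 0.18 to 0.25. On the standard-cage arrays the SD of the 2 spots was at most 0.05. The lower spot of each enriched array, at −0.42 to −0.29, lay close to the spots of the C-C arrays, which ran from −0.41 to −0.32.

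The 4 probes listed for the other transcripts of Igf1 did not share this order. The probe at base 889 gave −0.35 and −0.40 on the C-C arrays, −0.43 and −0.46 on the C-DE arrays, −0.32 and −0.56 on the EE-C arrays, and −0.52 and −0.56 on the EE-DE arrays. Its log2 fold change in EE-DE/C-C was −0.17 (−0.22 to −0.12), that of the probe at base 6909 was −0.13 (−0.21 to −0.04) and that of the probe at base 3252 was 0.06 (−0.01 to 0.13). The probe at base 909, which overlaps the one at base 889, had −0.02 (−0.09 to 0.05). In C-DE/C-C, the probe at base 3252 had 0.11, near the 0.13 of variant 2, and C-C was its lowest pool too. There the probes at bases 889, 909 and 6909 had −0.07, −0.06 and −0.10. Within an array, the variant 2 signal relative to the mean of the other 4 probes differed by 0.26 (0.23 to 0.30) in EE-DE/C-C and by 0.16 (0.13 to 0.19) in C-DE/C-C. This ratio was chosen after the values were seen, shows unequal change of the probes only, and on the enriched arrays holds the disagreeing spots. Over 18 other settings it ran from 0.22 to 0.29 in EE-DE/C-C and from 0.11 to 0.18 in C-DE/C-C. It ran from 0.06 to 0.27 in EE-C/C-C, from −0.00 to 0.21 in EE-DE/EE-C and from 0.08 to 0.13 in EE-DE/C-DE. Other filters, the use of all spots, and leaving out an array outside the comparison could not move this ratio. On the first EE-C array, the median deviation of neighbouring spots was −0.01 around both variant 2 spots. It ran from −0.02 to 0.15 around the spots of the other 4 probes.

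Igf1r, the receptor tyrosine kinase for Igf1, gave 2.12 and 2.11 on the C-C arrays, 2.12 and 2.05 on the C-DE arrays, 2.03 and 2.07 on the EE-C arrays, and 2.08 and 1.96 on the EE-DE arrays. The pool means lay within 0.10 of each other, with C-C highest and EE-DE lowest, and neighbours in the order overlap. The log2 fold change in EE-DE/C-C was −0.10 (−0.16 to −0.03).

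Gdnf (glial cell line-derived neurotrophic factor) gave −2.59 and −2.28 on the C-C arrays, −2.45 and −2.26 on the C-DE arrays, −2.23 and −2.42 on the EE-C arrays, and −2.63 and −2.42 on the EE-DE arrays. The arrays of a pool stood up to 0.31 apart, more than the 0.20 between the pools farthest apart. Its log2 fold change was 0.08 (−0.17 to 0.33) for exhaust in the standard cage and −0.20 (−0.39 to −0.00) in the enriched one. The difference of these, −0.28, was the largest of its kind among the 14 passing probes and was not tested. In EE-DE/EE-C, Gdnf had −0.08 with normexp and −0.10 without the first EE-C array. On that array the passing spots around the probe had a median of 0.09, relative to their medians over the arrays. On the remaining arrays it was −0.02 to 0.02. The part of this in the values was not tested.

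Fgf2 (basic fibroblast growth factor) was dim. The probe printed above has 10 spots, of which 10, 10, 10 and 10 were well above background on the arrays of C-C and C-DE, 9 and 9 on those of EE-C, and 1 and 8 on those of EE-DE. The mean of its spots was −5.15 and −5.17 on the C-C arrays, −5.18 and −5.10 on the C-DE arrays, −5.26 and −5.12 on the EE-C arrays, and −5.25 and −5.25 on the EE-DE arrays. The 2 arrays of a pool stood at most 0.14 apart, while the spots of 1 array had an SD of 0.23 to 0.48. The count of 1 spot belongs to the first EE-DE array, the array of highest background. The second Fgf2 probe was not well above background on any array.

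Vegfa was read by 2 probes with different orders of the pools. The probe toward the 3′ end gave 1.96 and 1.85 on the C-C arrays, 1.86 and 2.00 on the C-DE arrays, 1.76 and 1.82 on the EE-C arrays, and 1.91 and 1.84 on the EE-DE arrays. The coding probe gave −1.22 and −1.47 on the C-C arrays, −1.27 and −1.10 on the C-DE arrays, −1.19 and −1.14 on the EE-C arrays, and −1.18 and −1.24 on the EE-DE arrays. In EE-C/C-C the first had a log2 fold change of −0.11 (−0.20 to −0.03) and the second 0.18 (0.03 to 0.33), so that neither direction stands for the gene.

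**Figure D2:**
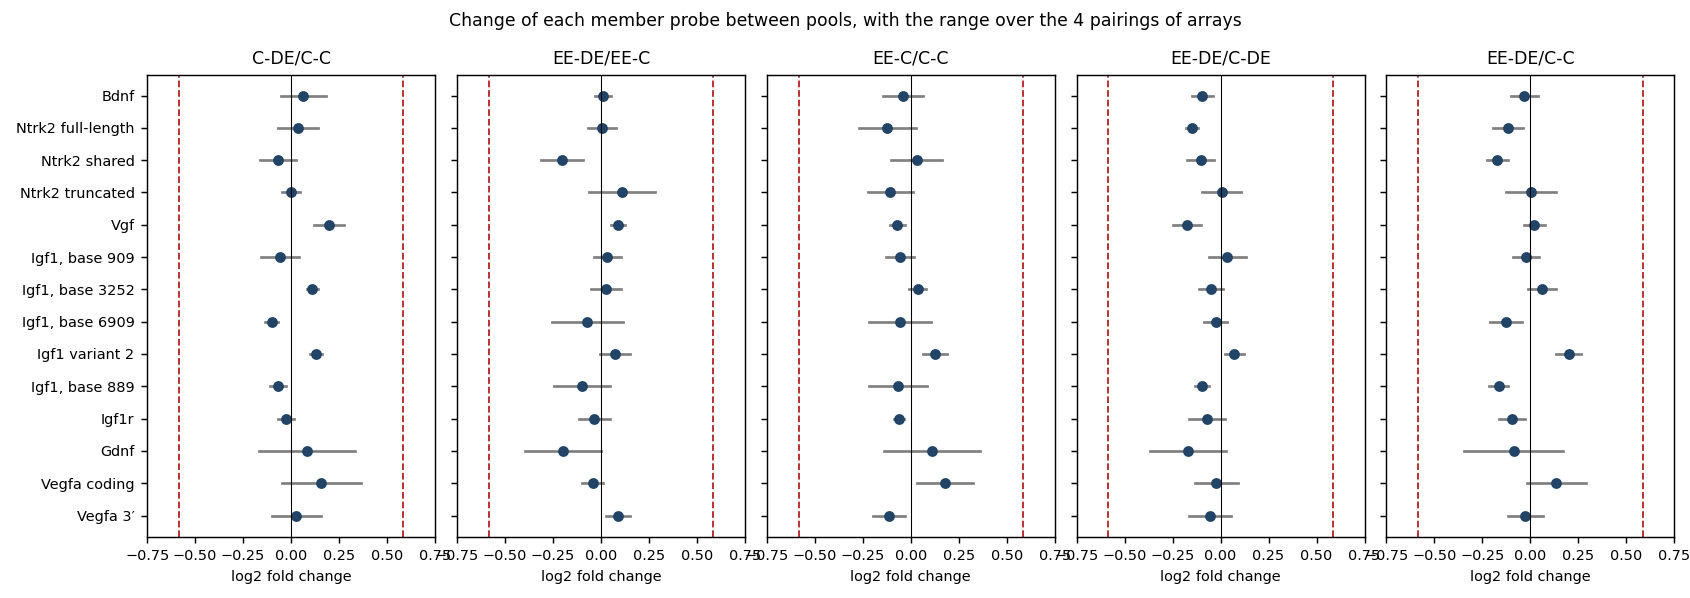
Log2 fold change of the 14 passing member probes (rows) in the 5 comparisons of pools (panels). Points are differences of pool means, grey bars the range over the 4 pairings of arrays, and red dashed lines 1.5-fold. No point reaches 1.5-fold, and the largest are 0.20 in size.

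The arrays of the pools compared did not overlap for 5 of the 14 probes in C-DE/C-C, against 40.9% of all probes, and for 4 in EE-DE/EE-C, against 34.2%. In EE-C/C-C it was 5, against 37.7%, in EE-DE/C-DE 6, against 42.2%, and in EE-DE/C-C 6, against 47.1%. These counts are close to those of probes in general. For 5 of the 14 probes the range of the pool means exceeded the largest difference between arrays of a pool, as it did for 37.0% of all probes.

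Housing and exhaust could each be tested with 2 pools a side, in limma with both as terms, on the 4 pool means. No member had an adjusted p under 0.05 for housing or exhaust, and neither did any of the 21699 probes (0% called). At an unadjusted p under 0.05, limma gave 1 member for housing, against 9.69% of all probes, and 0 members for exhaust, against 7.42%. The one was full-length Ntrk2, with a log2 difference of −0.14 between enriched and standard housing (95% confidence interval −0.26 to −0.01, limma adjusted p = 0.508). It did not stay under an unadjusted 0.05 without the first C-C array, the second C-DE array or the first EE-C array. Nor did it stay under 0.05 with looser filters on signal, or when probes without an accession were admitted. With normexp, 4 members were under it for housing, against 19.1% of all probes, and with the pool as a random block also 4, against 22.8%. Vgf had 0.14 between exhaust and clean air (−0.00 to 0.29, limma adjusted p = 0.671). Bdnf had −0.07 for housing (−0.20 to 0.06) and 0.04 for exhaust (−0.09 to 0.16). For each of the 14 passing probes the interval stayed within a 1.21-fold difference for housing and a 1.23-fold difference for exhaust, and leaving out 1 array widened this to at most 1.34-fold and 1.37-fold. Ntf3 and Fgf2 were not in this fit. Under the looser filter on signal that lets Ntf3 in, the widest member interval reached 2.51-fold for housing and 2.26-fold for exhaust. These intervals rest on 1 residual degree of freedom and on the spread of all probes, and they describe pools.

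**Figure D3:**
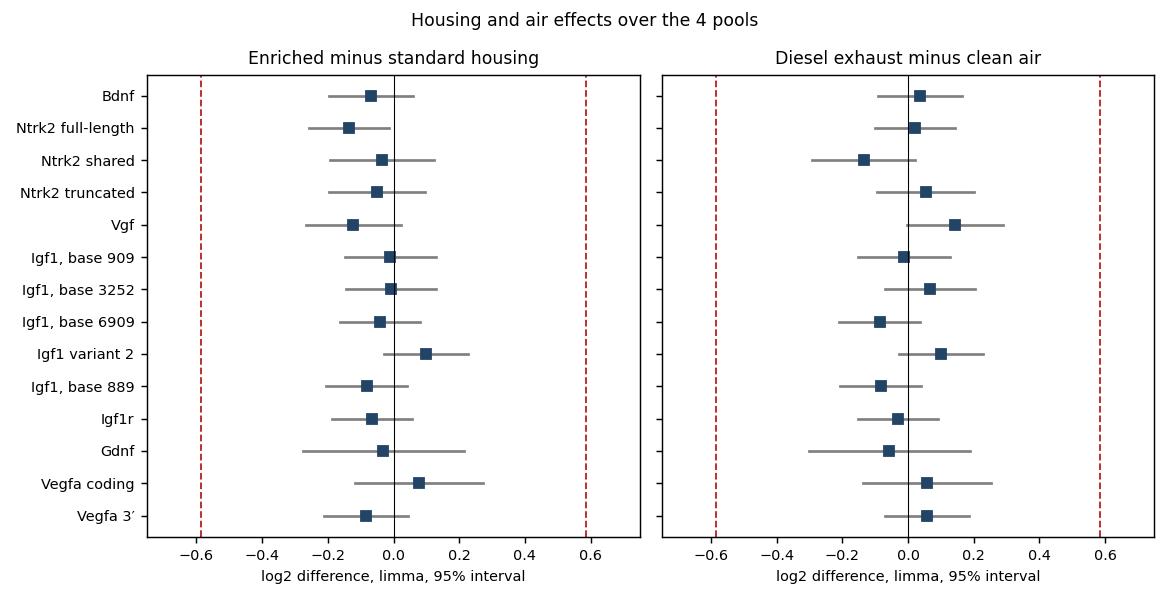
Log2 difference of the 14 passing member probes (rows) between enriched and standard housing and between diesel exhaust and clean air, from limma over the 4 pools. Squares are estimates, grey bars 95% confidence intervals, and red dashed lines 1.5-fold. All intervals lie inside the lines, and that of full-length Ntrk2 for housing does not reach 0.

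Counting the 8 arrays as separate samples, limma called 0 members and 0 of all probes in each of the 5 comparisons. At an unadjusted p under 0.05 it gave 1 member in C-DE/C-C (Vgf), 1 in EE-DE/EE-C (shared Ntrk2), 0 in EE-C/C-C, 1 in EE-DE/C-DE (Vgf) and 1 in EE-DE/C-C (Igf1 variant 2), where 1381, 1356, 1942, 1557 and 2331 of all 21699 probes did so. The widest member interval then reached 1.43-fold, in EE-DE/EE-C. The error of these comparisons is only the spread between the 2 arrays of a pool, which the methods describe as 1 divided RNA. It holds no spread between mice or between pools.

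The wider families also held few differences of 1.5-fold. The lists of the neurotrophin system, the insulin-like growth factor (IGF) system, the GDNF, FGF and VEGF families, the granins with their processing enzymes, and activity-regulated genes hold 104 names, of which 87 passed. Among these 87, each read at 1 probe, 1 was past 1.5-fold in EE-C/C-C, or 1.15% against 0.82% of all probes, in either direction. It was higher there. In the remaining 4 comparisons 0 were, against 0.576% to 0.94% of all probes. That gene was Klb, the co-receptor for endocrine fibroblast growth factors, with −4.79 and −4.88 on the C-C arrays and −4.06 and −4.19 on the EE-C arrays, a log2 fold change of 0.71 (0.61 to 0.81). Its signal was low, its EE-DE/C-DE value was 0.48 (0.27 to 0.69), and the limma adjusted p for housing was 0.497.

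In the neurotrophin system, 13 of 16 names passed and 0 reached 1.5-fold in any comparison, with medians between −0.04 and 0.03 over the comparisons. Its other members included Ntrk3, the receptor for Ntf3. In the IGF system 15 of 17 passed, with 0 past 1.5-fold and medians between −0.07 and 0.02. Its extremes included Irs4, an adaptor of the receptor named after its value was seen, with 0.29 in EE-C/C-C, Igfbp7, an IGF-binding protein, with 0.29 (−0.24 to 0.82) and Igf2, the fetal-type IGF, with −0.24 (−0.36 to −0.13), both in EE-DE/EE-C, and Pappa, a protease that cleaves IGF-binding proteins, with −0.24 (−0.32 to −0.15) in EE-C/C-C and −0.22 (−0.33 to −0.11) in EE-DE/C-DE. The pairings of Igfbp7 took both signs and those of Igf2 and Pappa did not. The GDNF family had 6 of 8 passing and the VEGF family 8 of 10, with 0 past 1.5-fold. Kdr, the main receptor for Vegfa and also named after its value was seen, had the largest value of its family, 0.32 (0.15 to 0.50) in EE-DE/C-C.

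In the FGF family, 25 of 32 passed. Fgf7, a growth factor made by mesenchymal cells, was the lowest of all listed genes in 3 comparisons, with −0.38 (−0.49 to −0.27) in C-DE/C-C, −0.30 (−0.41 to −0.18) in EE-DE/EE-C and −0.33 (−0.42 to −0.25) in EE-DE/C-C. Its C-C arrays gave −2.78 and −2.89 and its C-DE arrays −3.27 and −3.16, which do not overlap. Kl, a co-receptor for endocrine FGFs, had −0.31 (−0.57 to −0.05) and Fgf6, a growth factor of muscle, 0.22 (0.06 to 0.37) in C-DE/C-C. Fgf6 had 0.26 (−0.00 to 0.52) in EE-DE/EE-C, and Fgf23, a hormone that regulates phosphate, had −0.23 (−0.29 to −0.16) in EE-C/C-C. In EE-DE/C-DE the extremes were Fgf11 with 0.50 (0.29 to 0.72) and Spry4, an inhibitor of FGF signaling, with −0.22 (−0.28 to −0.17), and in EE-DE/C-C Fgfr4, an FGF receptor, had −0.33 (−0.41 to −0.25) and Klb 0.47 (0.42 to 0.52). None of these values passed 1.5-fold, and no gene of the list had an adjusted p under 0.05 for housing or exhaust in limma. At an unadjusted p under 0.05, limma gave 5 of the 25 for housing and 4 for exhaust, against 9.69% and 7.42% of all probes. For either effect it gave 0 to 2 genes in each list of the neurotrophin system, IGF system, GDNF family, VEGF family and granins. The granins and prohormone-processing genes, the class to which Vgf is related, all passed (9 of 9) and lay between −0.13 and 0.11 in every comparison.

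The activity-regulated genes, which are induced when neurons fire, were measured in 11 of 12 cases and had the largest medians of these 7 lists. For exhaust, their median log2 fold changes were 0.12 (C-DE/C-C) and 0.11 (enriched housing, EE-DE/EE-C). For housing, they were 0.15 in EE-C/C-C and 0.10 in EE-DE/C-DE, and EE-DE/C-C had 0.24, where the median of all probes was between −0.01 and 0.01. None of the 11 passed 1.5-fold or had an adjusted p under 0.05 in limma (lowest 0.497 for housing and 0.655 for exhaust). At an unadjusted p under 0.05, 5 were higher with enrichment (Fos, Fosb, Arc, Nr4a1 and Dusp1), against 9.69% of all probes in either direction, and 3 with exhaust (Fos, Egr2 and Npas4), against 7.42%.

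These genes also differed between the 2 arrays of 1 pool. Fos gave 1.46 and 0.76 on the C-C arrays, 1.02 and 1.44 on the C-DE arrays, 1.26 and 1.64 on the EE-C arrays, and 1.76 and 1.44 on the EE-DE arrays. Npas4 gave 2.49 and 1.78 on the C-C arrays, 1.98 and 2.72 on the C-DE arrays, 2.18 and 2.28 on the EE-C arrays, and 2.43 and 2.23 on the EE-DE arrays. The arrays of C-C and C-DE overlap for both genes, and the spread within these pools was larger than the difference between them. Of the 11 genes, 10 were brighter on the first C-C array, 11 on the second C-DE array, 10 on the second EE-C array and 10 on the first EE-DE array. Without the second C-C array, the median in C-DE/C-C was −0.04 and in EE-C/C-C 0.03, and without the second C-DE array the median in C-DE/C-C was 0.01. Without the second EE-C array the median in EE-C/C-C was 0.02, and without the first C-DE array that in EE-DE/C-DE was 0.03. The median in EE-DE/EE-C was −0.03 without the first EE-C array and −0.03 without the first EE-DE array, and the latter also took EE-DE/C-DE to −0.01. Other arrays left out raised the medians. C-DE/C-C had 0.23 without the first C-C array, and EE-C/C-C had 0.33 without the first EE-C array. Without the second EE-DE array, EE-DE/EE-C had 0.23 and EE-DE/C-DE 0.32. For EE-DE/C-C, the median was 0.09 without the first EE-DE array and 0.45 without the second, and 0.34 and 0.14 without the first and the second C-C array. Bdnf, itself an activity-regulated transcript, varied by no more than 0.13 between arrays of a pool, and Vgf by no more than 0.10.

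**Figure D4:**
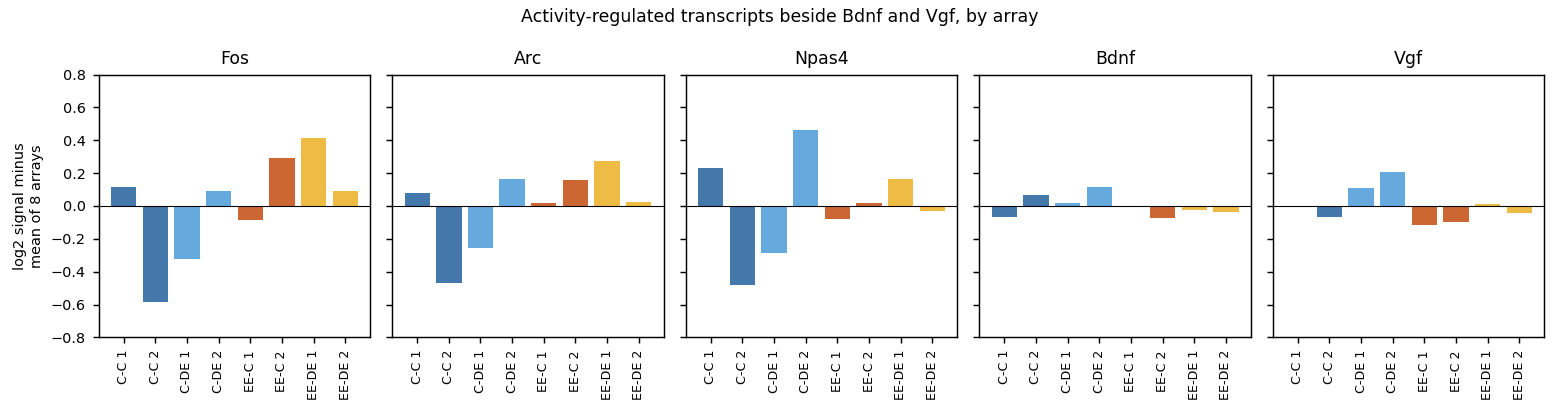
Log2 signal of Fos, Arc, Npas4, Bdnf and Vgf on each of the 8 arrays (x axis), relative to the gene's mean over the arrays (y axis), colored by pool. The 2 arrays of a pool differ by up to 0.75 for Npas4 and by up to 0.13 for Bdnf.

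The genes whose signal followed that of a member most closely were sought over the 8 arrays, with Pearson's r as a description. Arrays of 1 pool share their source, and the members' values ran over narrow ranges. For Bdnf, they were Rfx1 (r = 0.97) and Adsl (0.94), and for shared Ntrk2 Ndn (0.99) and Aars (0.99). For Vgf they were Brms1l (0.97) and Saa2 (0.96). For Igf1 at base 6909 they were Fkbp14 (0.98) and St8sia6 (0.97), for Igf1r Ttbk1 (0.98) and Rapgef1 (0.97), for Gdnf Cox7b2 (0.94) and Ccdc130 (0.94), and for Vegfa at the 3′ probe Bcl6b (0.99) and Krt10 (0.98). With the highest r taken from 21699 probes over 8 arrays, such values describe likeness only. Saa2, an acute-phase protein gene, was the one with the widest range among the pair named for Vgf, at 1.06 against 0.32 for Vgf, and its log2 fold change in C-DE/C-C was 0.65.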

How the data were processed

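The deposited intensity values were written by Feature Extraction 10.7.3.1, which per the file headers subtracted background and spatial trends. The deposited log2 values of the series table were made by the authors. Scale, centring and direction were found by setting them against the scanner values, scaled to the 75th percentile and centred on the median of each probe: 99.4% of 21699 probes lay within 0.02 on all 8 arrays, the largest difference was 0.549, and column medians lay between −0.01 and 0.02. They served as an alternative, and no other columns were left unused (0).

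Each array's 75th percentile (644 to 716 intensity units over noncontrol spots) was subtracted on the log2 scale, passing spots of a probe were averaged, and the log2 means of the 2 arrays of a pool were compared at 1.5-fold. Arrays of a pool had a Pearson's r of 0.996 to 0.998 across probes, lowest in EE-C. There 2.11% of probes stood 1.5-fold apart between the arrays, against 0.72% to 1.22% in the other pools. Housing and exhaust were tested with limma 3.58.1 in R 4.3.3 (additive model over 4 pool means, two-sided, Benjamini-Hochberg over 21699 probes), tested first on simulated data. The residual of this fit is the difference in the exhaust effect between the housings, moderated by the spread of all probes. No group has a second pool, so its p-values do not measure the spread between pools of 1 group. In the additive fits of the 8 arrays, the residual also holds the spread between the 2 arrays of a pool. In the pairwise fits it holds only that. Other work used Python 3.11.15. The numbers of pools and of arrays limit the precision.

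All members were named with every probe. Of the pathway lists, genes past 1.5-fold in all 4 pairings and the 2 highest and lowest per comparison were named, and for likeness the 2 genes of highest r per member. Members and lists were chosen with earlier results of these data known. Alternatives were other background corrections, scalings, filters, thresholds and fits, and leaving out each array. Probe symbols are those of the array files, and 15 of 17 member accessions were found in RefSeq, all 15 with the same symbol.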

Additional observations from a re-analysis of the deposited data

How the results depend on the processing

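With the 8 arrays counted as separate samples and the replicate number as a block, limma called 0 members for housing and 0 for exhaust, and 0 of all probes, as it did without the block. Per the methods the numbers name the 2 arrays of a pool, and the differences between the first and the second array correlated across probes with r over 0.1 in 2 of 6 pairs of pools, so the numbers were not taken to pair the arrays. The counts of members past 1.5-fold (0 of 14 in every comparison) and of members called by limma (0 for housing and exhaust) stayed at 0 in all alternatives except these. With a positive and significant signal as the filter, or well above background in at least 1 pool, 1 of 16 members passed 1.5-fold in EE-C/C-C (Ntf3, 0.88), and 1 of 16 in EE-DE/EE-C (Ntf3, −0.73). With no outlier filter, 1 of 15 passed in EE-DE/C-C. It was Fgf2, at 0.59 from the 1 spot of 10 that this filter admits. That spot was the only one well above background on the first EE-DE array, so its signal there decided that it entered. The mean of all 10 spots was −5.25 in EE-DE and −5.16 in C-C. Ntf3 and Fgf2 are read by dim probes that the main filter left out. Leaving out each array gave 0 to 0 members in all comparisons and for both effects. The fits of the 8 arrays as separate samples, with and without the replicate block, and with all spots of a probe, were chosen after seeing the data. With the pool as a random block, limma called 379 of 21699 probes for housing and 66 for exhaust, against 0 in the main fit, and no member. Its lowest member adjusted p was 0.088 for housing, where the range over the alternatives was 0.088 to 0.709. At an unadjusted p under 0.05, limma gave 0 to 4 members for housing and 0 to 3 for exhaust over all alternatives. With trend and robust estimation it called 2 and 21 probes and no member.

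The 35 log2 fold changes of the brightest passing probe of 7 genes in 5 comparisons were recomputed under 10 alternative settings. Of these values, 340 moved by less than the SD between arrays and 10 by more, at most by 0.16. The cause of the moves was not tested. Settings that changed only the filter or the spots used could not move these values, because every spot of these probes passed. Their values are among the 340 and do not show stability. With 1 of its arrays left out, a fold change moved by at most 0.15, and 17 of the 35 turned sign at least once, the largest of these being 0.11 (Gdnf in EE-C/C-C). The median of all probes never moved past 0.02. Counts of probes past 1.5-fold over all probes ran from 38 under normexp to 571 under the looser filter in C-DE/C-C, against 125.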
